A study of Rattus norvegicus with 16 samples.

Results

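Of the 10 genes listed here for prostaglandin synthesis, breakdown, uptake and reception, 9 were measured in the normal distal colon of 16 male rats. These were Ptgs1, Ptgs2, Ptges and Ptgis for synthesis, Hpgd for breakdown, Slco2a1 for uptake and Ptger2, Ptger3 and Ptger4 for reception. They were found by their gene symbol, as the transcript named by each array probe maps to it in the RefSeq gene table, and 11 of 30367 probes belonged to them. The tenth, Ptger1, had no probe by this match and was not analysed here.

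Prostaglandins are made from arachidonic acid, which phospholipases release from the membrane. The cyclooxygenases encoded by Ptgs1, expressed steadily in many tissues, and by Ptgs2, induced in inflammation, turn it into prostaglandin H2, from which the synthase of Ptges makes prostaglandin E2 and that of Ptgis makes prostacyclin. Slco2a1 encodes a transporter that takes prostaglandins into cells, and Hpgd the dehydrogenase that inactivates them there, so that both end the signal. The products of Ptger1 to Ptger4 are the receptors EP1 to EP4 of prostaglandin E2, of which EP2 and EP4 raise cyclic AMP and EP3 mostly lowers it. In the colon this pathway is known for its part in mucosal repair and in the growth of adenomas, and HPGD is often lost in colorectal tumours.

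Every rat came from a cross of the ACI and F344 strains, was 97 days old and has the strain label (ACIxF344)F1-Pirc. In 8 rats Apc was wildtype, and the other 8 were heterozygous for the Pirc allele (Pirc/+), a germline nonsense mutation of Apc that leads to colonic adenomas. In each genotype 4 rats were untreated (Control) and 4 were given dextran sodium sulfate (DSS, molecular weight 500000), a polymer that injures and inflames the colonic epithelium, at 4% in the drinking water on days 40 to 47 and again on days 54 to 61, so that sampling came 36 days after the last dose. Each array was hybridised with the RNA of 1 rat, with a single dye, and each group of 4 lay in an array column of its own, so that column and group cannot be told apart, while each of the 2 slides held 2 rats of every group. The labels call the tissue normal distal colon and give no dissection of layers. For untreated Pirc rats the study's methods describe scraping of the lumen away from visible tumours, and whether these 16 samples were taken that way is not given in the sources used here. In such bulk tissue fewer cells of a type and less RNA per cell cannot be told apart.

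A level below is the log2 of a probe's processed signal minus the log2 of the 75th percentile of its array, so that 0 is the 75th percentile and a difference of 1 is a doubling. Levels of different probes are not comparable with each other. That percentile ranged from 875.36 to 2194 intensity units over the 16 arrays, 71.11% to 80.32% of the spots stood well above background and none was saturated. All 9 measured markers of colonic epithelium were well above background on every array, with a summed level of 467 to 665 times the 75th percentile.

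The DNA just upstream of the start sites of 3 of the genes is shown because these are the inducible enzymes of prostaglandin E2 synthesis and the receptor gene that passed after DSS in both genotypes. Each stretch is the 250 bases before the start, on the gene's strand, from the RefSeq promoter table of GRCr8. The stretches are chr13:64713813-64714062 (plus strand) for Ptgs2, chr3:34586988-34587237 (minus strand) for Ptges and chr2:249264832-249265081 (plus strand) for Ptger3. Capitals mark a match on either strand to an E-box (CACGTG), a C/EBP motif (TTNCNNAA) or a GC box (GGGCGG).
Ptgs2: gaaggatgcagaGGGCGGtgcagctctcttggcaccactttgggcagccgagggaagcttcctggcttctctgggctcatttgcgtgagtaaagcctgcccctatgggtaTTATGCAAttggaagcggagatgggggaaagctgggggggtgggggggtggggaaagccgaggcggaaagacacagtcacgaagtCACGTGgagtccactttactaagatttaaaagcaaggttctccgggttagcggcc
Ptges: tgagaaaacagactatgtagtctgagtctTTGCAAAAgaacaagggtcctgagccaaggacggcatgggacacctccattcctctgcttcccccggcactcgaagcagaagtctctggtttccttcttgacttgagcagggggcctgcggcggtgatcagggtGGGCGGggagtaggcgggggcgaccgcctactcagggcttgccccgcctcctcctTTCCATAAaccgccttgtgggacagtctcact
Ptger3: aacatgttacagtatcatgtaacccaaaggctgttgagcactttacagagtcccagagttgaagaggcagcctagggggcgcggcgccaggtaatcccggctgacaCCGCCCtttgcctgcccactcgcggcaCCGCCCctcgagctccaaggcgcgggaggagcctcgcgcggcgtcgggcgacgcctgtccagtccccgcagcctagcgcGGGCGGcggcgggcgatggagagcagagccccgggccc
The Ptgs2 stretch held an E-box whose first base lay 55 bases upstream of the start, a C/EBP match 140 bases upstream and a GC box 238 bases upstream. The Ptges stretch held C/EBP matches 221 and 32 bases upstream and a GC box 87 bases upstream. In that of Ptger3 there were 3 GC boxes, 144, 117 and 38 bases upstream, and neither of the other motifs. None of these matches overlapped. The E-box occurred in 5.59% of 33469 rat promoters of this length, the C/EBP motif in 37.2% and the GC box in 30.5%, so that only the E-box of Ptgs2 was uncommon, and a match of letters is a description and not a site of binding. Matches to NF-kappaB (GGANTTTCC, in 1.08% of promoters), AP-1 (TGANTCA, 6.34%) and the short CRE motif (TGACG, 18.2%) were also searched on both strands, and the 3 stretches held none.

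After DSS in Pirc rats 5 of the 9 genes passed, where 14.7% of all probes did, and in Apc wildtype rats 1 passed, where 3.84% did. For the difference between these DSS effects 0 of 9 passed, where 0.0428% of probes did. In Pirc rats the synthesis genes Ptgs2 and Ptges and the receptor gene Ptger2 were higher after DSS, while the breakdown gene Hpgd and the receptor gene Ptger3 were lower. Ptger3 was the gene that fell in both genotypes, by 4.93-fold in Pirc rats and 1.99-fold in Apc wildtype rats. Between the genotypes 0 of 9 passed in untreated rats, where 0% of probes did, and 5 passed after DSS, where 18.2% did. The plot of levels per rat and that of the differences give all 9 genes.

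**Figure D1:**
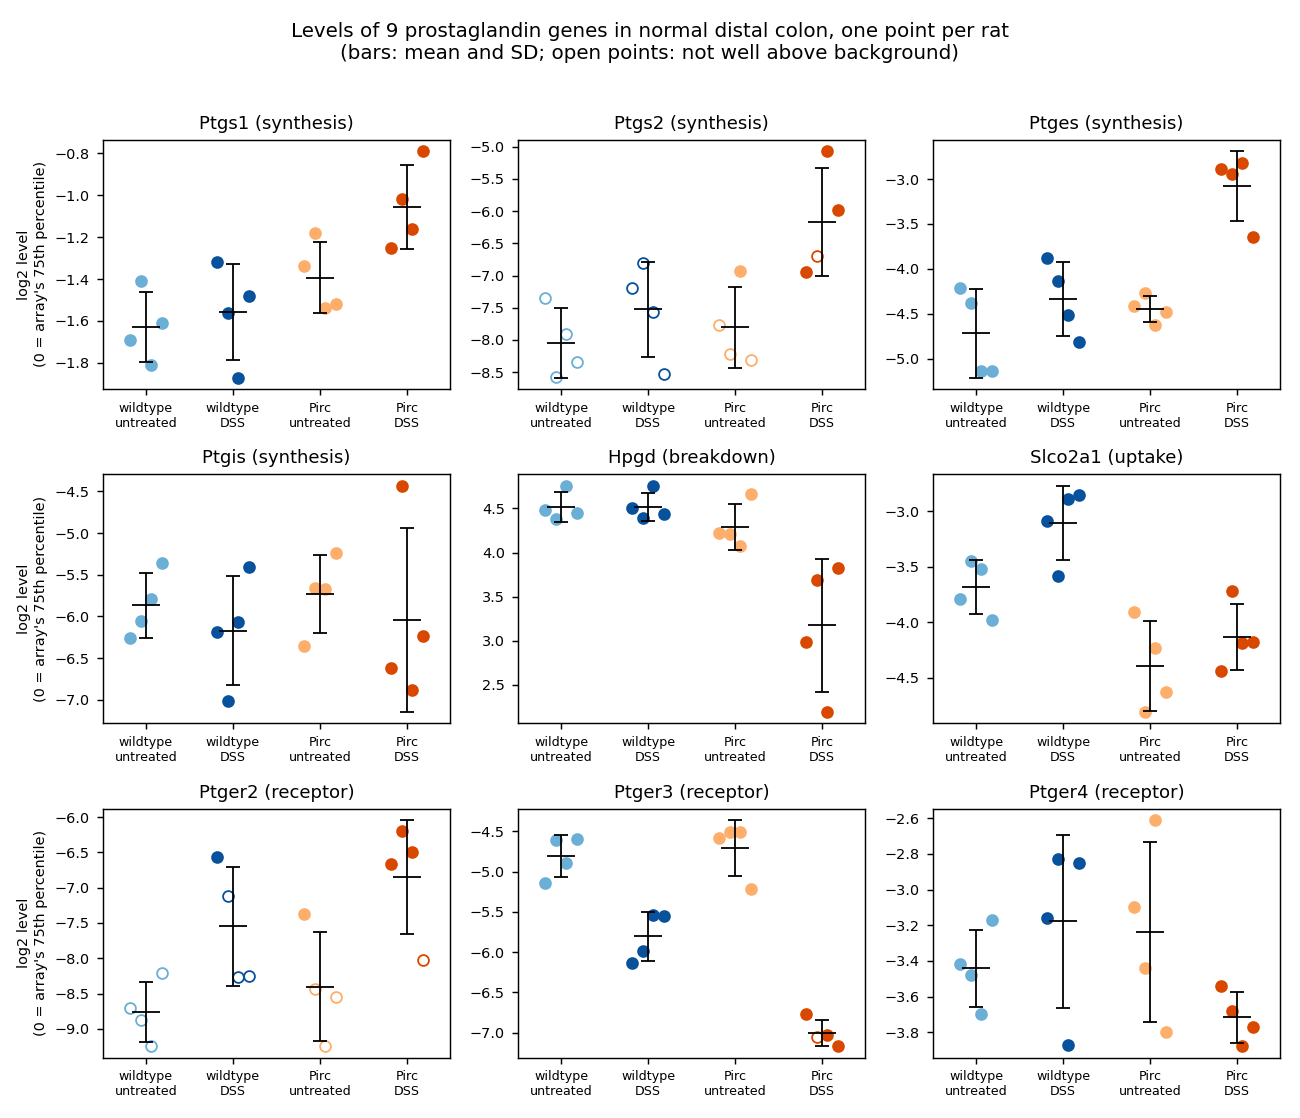
Log2 level (vertical axis, 0 at the array's 75th percentile) of the 9 measured genes in each rat, in 4 groups of 4. Points are rats, open where the probe was not well above background, and bars are the mean and SD, and in the panel of Ptger3 the DSS-treated Pirc rats sit between -7.16 and -6.77, below all other rats.

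Ptges, the synthase that makes prostaglandin E2 downstream of the cyclooxygenases, had levels of -4.41, -4.27, -4.62 and -4.48 in the untreated Pirc rats (rats 11, 15, 19 and 23). In the DSS-treated Pirc rats (rats 12, 16, 20 and 24) they were -2.89, -2.94, -2.82 and -3.65. All 4 of the treated rats lay above all 4 of the untreated ones, and 3 of them lay close together, with rat 24 lower. The difference was 1.37 on the log2 scale (SE 0.26, 2.58-fold, adjusted p = 0.00274 by limma). In untreated Apc wildtype rats (rats 13, 17, 21 and 25) the levels of Ptges were -4.21, -4.38, -5.14 and -5.14, and in DSS-treated ones (rats 14, 18, 22 and 26) -3.88, -4.14, -4.51 and -4.81. These groups overlapped, with a difference of 0.38 (SE 0.26, adjusted p = 0.53). Among DSS-treated rats Ptges was 2.39-fold higher in Pirc than in Apc wildtype rats (log2 difference 1.26, SE 0.26, adjusted p = 0.00574), and the groups did not overlap. The larger response of Ptges in Pirc rats did not pass the test of the difference between the DSS effects (0.99, SE 0.37, unadjusted p = 0.017, adjusted p = 0.356).

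Ptgs2, the inducible cyclooxygenase, was a dim probe, well above background on 4 of the 16 arrays. Its levels were -7.76, -8.21, -6.93 and -8.31 in untreated Pirc rats, where the probe was well above background in rat 19, and -6.94, -6.69, -5.07 and -5.99 in DSS-treated ones, where it was so in rats 12, 20 and 24. Rat 20 was the highest of all 16 and the lowest treated rat lay just below the highest untreated one. The difference was 1.63 on the log2 scale (SE 0.46, limma adjusted p = 0.0272), measured against a group in which 3 of 4 arrays were at background, and 1.04 when dim values were raised to a common floor (adjusted p = 0.0398). The exact permutation test, two-sided, gave p = 0.0571 for 4 rats against 4. In the Apc wildtype rats Ptgs2 ran from -8.58 to -7.35 without DSS and from -8.53 to -6.80 with it, not well above background on any of these 8 arrays. Among DSS-treated rats the genotypes differed in Ptgs2 by 1.35 (SE 0.46), which did not pass (adjusted p = 0.0535). That difference was 0.18 within the first slide and 2.51 within the second, and it was 0.98 with the common floor (adjusted p = 0.0413). It also passed without rat 12, 16, 18 or 19 (adjusted p = 0.0418 to 0.046). In Pirc rats the adjusted p of DSS was 0.0578 to 0.0938 when rat 11, 15, 20 or 23 was left out. With background corrected by normexp from the spot and its local background, the difference after DSS in Pirc rats was 0.55 (adjusted p = 0.0727) and that between the DSS-treated genotypes 0.06 (adjusted p = 0.818), with quantile normalization the former was 1.34 (0.0616), and with only the compared groups in the fit its adjusted p was 0.065.

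Ptgs1, the constitutive cyclooxygenase, had levels of -1.34, -1.18, -1.54 and -1.52 in untreated Pirc rats and of -1.25, -1.02, -1.16 and -0.79 in DSS-treated ones. These overlapped in the rats with the highest untreated values, and the difference of 0.34 (SE 0.15) did not pass (adjusted p = 0.153). In DSS-treated Apc wildtype rats the levels were -1.32, -1.56, -1.87 and -1.48, all below those of every DSS-treated Pirc rat. That difference was 0.50 (SE 0.15, 1.42-fold, adjusted p = 0.0315 by limma). Without rat 18, 20, 22 or 24 its adjusted p was 0.0539 to 0.0988, with only the compared groups in the fit 0.113, and with the second, much dimmer probe of Ptgs1 averaged in 0.182. That second probe passed in no comparison, and its differences had the same sign as those of the first in the 4 comparisons of pairs of groups. Untreated Apc wildtype rats had Ptgs1 at -1.81 to -1.41.

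Ptgis, the prostacyclin synthase, varied more among the DSS-treated Pirc rats than between groups. Its levels were -6.62, -4.43, -6.88 and -6.23 in these rats, with rat 16 far above the other 3, and -6.36, -5.66, -5.67 and -5.24 in untreated Pirc rats. Among Apc wildtype rats it ranged from -6.26 to -5.36 without DSS and from -7.01 to -5.41 with it. No comparison of Ptgis passed, and the 95% interval of its DSS difference in Pirc rats, -1.30 to 0.69, leaves room for a change by a factor of 2 downward.

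Hpgd, the enzyme that inactivates prostaglandins, was among the bright probes and was well above background on all 16 arrays. Its levels were 4.22, 4.21, 4.07 and 4.66 in untreated Pirc rats and 2.98, 3.69, 2.19 and 3.83 in DSS-treated ones. Each of the 4 treated rats lay below each untreated rat, with rat 20 lowest. The difference was -1.12 (SE 0.28, 2.17-fold lower, adjusted p = 0.0151 by limma). In Apc wildtype rats Hpgd was 4.48, 4.38, 4.76 and 4.45 without DSS and 4.50, 4.39, 4.75 and 4.44 with it. The 2 groups were level, with a difference of 0.00 and a 95% interval of -0.59 to 0.60. Among DSS-treated rats Hpgd was 2.54-fold lower in Pirc than in Apc wildtype rats (-1.35, SE 0.28, adjusted p = 0.00592). The test of the difference between the DSS effects did not pass (-1.12, SE 0.40, unadjusted p = 0.0129, adjusted p = 0.337). The DSS difference of Hpgd in Pirc rats stood whichever rat was left out (-1.33 to -0.79, highest adjusted p 0.0421), while with only the compared groups in the fit its adjusted p was 0.0961, and that between the DSS-treated genotypes 0.0519.

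Slco2a1, the prostaglandin transporter, was lower in Pirc than in Apc wildtype rats after DSS and on average over both treatments. Its levels were -3.79, -3.45, -3.52 and -3.98 in untreated Apc wildtype rats and -3.09, -3.58, -2.89 and -2.85 in DSS-treated ones. In Pirc rats they were -3.91, -4.81, -4.23 and -4.63 without DSS and -4.44, -3.72, -4.19 and -4.18 with it. After DSS every Pirc rat lay below every Apc wildtype rat, and without DSS only rat 11 of the Pirc rats lay above the lowest Apc wildtype rat. Over both treatments Slco2a1 was lower in Pirc rats by 0.87 on average (log2 difference -0.87, SE 0.16, adjusted p = 0.00322 by limma). The difference was -1.03 among DSS-treated rats (SE 0.22, 2.05-fold lower, adjusted p = 0.00735). It was -0.71 among untreated rats (SE 0.22, unadjusted p = 0.00679), which did not pass the adjustment over all probes (adjusted p = 0.31). Within the slides the latter was -0.74 and -0.68. The DSS differences, 0.58 in Apc wildtype rats (SE 0.22, adjusted p = 0.186) and 0.26 in Pirc rats (SE 0.22, adjusted p = 0.53), did not pass, nor did their mean over both genotypes (0.42, 95% interval 0.08 to 0.76, adjusted p = 0.0866).

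Ptger3, which encodes EP3, was the gene of the 9 that passed in both genotypes after DSS. Its levels were -4.58, -4.51, -4.51 and -5.22 in untreated Pirc rats and -6.77, -7.06, -7.03 and -7.16 in DSS-treated ones. The treated rats formed a tight set far below the untreated, and the probe was well above background in all of them but rat 16. The difference was -2.30 (SE 0.20, 4.93-fold lower, adjusted p = 4.7e-05 by limma). Apc wildtype rats had levels of -5.14, -4.61, -4.89 and -4.60 without DSS and -6.13, -5.99, -5.54 and -5.55 with it. These too did not overlap, with a difference of -0.99 (SE 0.20, 1.99-fold lower, adjusted p = 0.0122). Rat 26, whose neutrophil markers (summed level 1.03) lay nearest those of untreated Apc wildtype rats (at most 0.853), was at -5.55 for Ptger3, beside rat 22. This is 1 rat, and a relation of Ptger3 to these markers was not tested. Among DSS-treated rats Ptger3 was 2.30-fold lower in Pirc rats (-1.20, SE 0.20, adjusted p = 0.00185), and in untreated rats the genotypes differed by 0.11 (SE 0.20, adjusted p = 0.886).

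A second probe of Ptger3 gave like differences. Its DSS difference was -2.80 in Pirc rats (SE 0.29, adjusted p = 8.04e-05) and -1.09 in Apc wildtype rats (SE 0.29, adjusted p = 0.0515), without overlap in either genotype. Among DSS-treated rats it was lower in Pirc rats by 1.84 on the log2 scale (-1.84, SE 0.29, adjusted p = 0.00154). The test of the difference between the DSS effects on Ptger3 did not pass for the first probe (-1.31, SE 0.28, unadjusted p = 0.000297, adjusted p = 0.118) or the second (-1.71, SE 0.41, adjusted p = 0.171). With normexp background correction the differences of the first probe were smaller, -0.63 in Pirc rats (adjusted p = 0.00921), -0.28 in Apc wildtype rats (0.51) and -0.42 between the DSS-treated genotypes (0.0651). Without rat 14 the adjusted p of DSS in Apc wildtype rats was 0.0534, at a difference of -0.88.

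Ptger2, which encodes the cyclic AMP raising receptor EP2, was dim, well above background on 5 of 16 arrays. Its levels were -7.38, -8.43, -9.25 and -8.55 in untreated Pirc rats, where only rat 11 was well above background, and -6.67, -6.20, -6.50 and -8.02 in DSS-treated ones, where only rat 24 was not. Rat 24 lay within the untreated range and the other 3 above it. The difference was 1.56 on the log2 scale (SE 0.48, limma adjusted p = 0.0419), with p = 0.0571 by the exact permutation test. In Apc wildtype rats the levels were -8.71, -8.87, -9.24 and -8.21 without DSS, none well above background, and -6.57, -7.12, -8.26 and -8.25 with it, a difference of 1.21 (SE 0.48) that did not pass (adjusted p = 0.202) and was 0.23 with a common floor for dim probes. Over both genotypes the DSS difference of Ptger2 was 1.38 (SE 0.34, adjusted p = 0.0105), which was 0.44 and did not pass with the common floor (adjusted p = 0.0549) and 0.33 with normexp (0.18). In Pirc rats it no longer passed when any of rats 12, 13, 15, 16, 17, 18, 19, 20 or 23 was left out (adjusted p = 0.0504 to 0.127), with the common floor (0.64, adjusted p = 0.0511), without moderation of the variances (0.0653), with only the compared groups in the fit (0.0897) or with normexp (0.42, 0.259).

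Ptger4, which encodes EP4, the other receptor that raises cyclic AMP, was well above background on all arrays and passed in no comparison. Its levels were -3.10, -3.44, -2.61 and -3.80 in untreated Pirc rats and -3.54, -3.68, -3.88 and -3.77 in DSS-treated ones. The treated rats lay in a narrow band around the low end of the untreated range. The DSS difference in Pirc rats was -0.48 (SE 0.25, 95% interval -1.02 to 0.07, adjusted p = 0.252), and in Apc wildtype rats, whose levels ran from -3.70 to -3.17 without DSS and from -3.87 to -2.83 with it, it was 0.26 (SE 0.25, adjusted p = 0.702). Between the DSS-treated genotypes it was -0.54 (adjusted p = 0.163), and without rat 22 it was -0.77 and passed (adjusted p = 0.044).

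**Figure D2:**
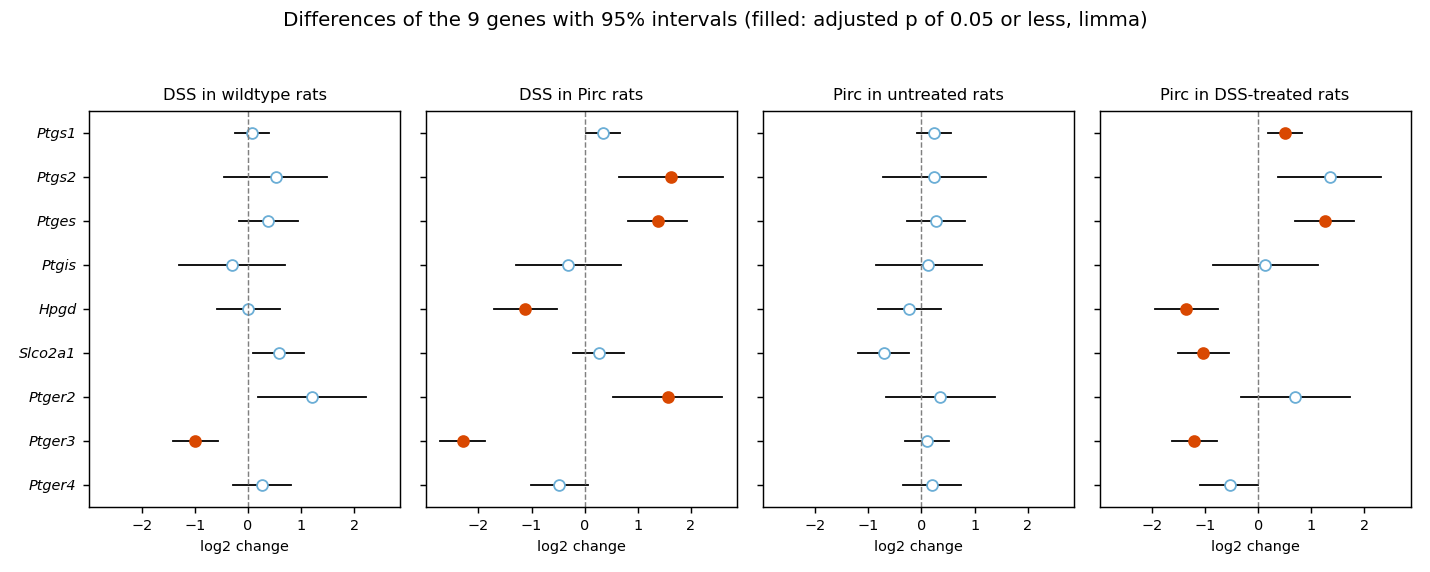
Log2 differences (horizontal axis) with 95% intervals of the 9 genes in the 4 comparisons of pairs of groups, filled where the adjusted p was 0.05 or less. Filled points are 1 for DSS in Apc wildtype rats, 5 for DSS in Pirc rats, 0 for Pirc in untreated rats and 5 for Pirc in DSS-treated rats.

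Counted over the 9 genes, DSS in Pirc rats raised 3 and lowered 2, where 14.7% of all 30367 probes passed, 8.14% higher and 6.51% lower. The median difference of the 9 genes was 0.26, against 0.04 over all probes. Left without rat 15, 20 or 23, the count was 3 in place of 5. Within the first and the second slide, each with 2 rats against 2, the DSS difference in Pirc rats was 1.17 and 2.08 for Ptgs2, 1.42 and 1.32 for Ptges, 1.47 and 1.64 for Ptger2, -0.88 and -1.36 for Hpgd and -2.37 and -2.23 for Ptger3. DSS in Apc wildtype rats lowered 1 and raised 0, where 3.84% of probes passed, 2.94% higher and 0.899% lower, and the count was 0 without rat 14. It was 1 without rat 26. Pirc in DSS-treated rats raised Ptgs1 and Ptges and lowered Hpgd, Ptger3 and Slco2a1, where 18.2% of probes passed, 9.47% higher and 8.76% lower. The groups did not overlap for these 5 genes, nor for Ptges, Hpgd and Ptger3 after DSS in Pirc rats, each at an exact permutation p of 0.0286, the smallest that 4 rats against 4 allow. Over all probes the groups did not overlap for 18.8% in the former comparison and 16.9% in the latter. For DSS in Apc wildtype rats this was so of Ptger3 alone, and of 12.4% of probes. Since both share the DSS-treated Pirc rats, the comparison of Pirc in DSS-treated rats and that of DSS in Pirc rats are not independent.

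Over both genotypes DSS raised Ptgs2 (1.07, SE 0.32, adjusted p = 0.0316), Ptges (0.88, SE 0.18, adjusted p = 0.00392) and Ptger2 and lowered Ptger3 (-1.65, SE 0.14, adjusted p = 1.13e-05), where 17.2% of probes passed, 10.2% higher and 6.99% lower. The pooled rise of Ptgs2 was lost without any of 9 rats in turn (rats 11, 14, 15, 17, 18, 20, 23, 24 and 25, adjusted p = 0.0505 to 0.0701), with the common floor (0.60, 0.0842), with normexp (0.37, 0.0814), with quantile normalization (0.72, 0.143) and without moderation (0.053). Hpgd passed without rat 16 or 24 (0.0366 and 0.0211) and Slco2a1 without rat 11 or 18 (0.0388 and 0.0432). Over both treatments Pirc raised Ptgs1 (0.37, SE 0.11, adjusted p = 0.0274) and Ptges (0.76, SE 0.18, adjusted p = 0.0116) and lowered Hpgd (-0.79, SE 0.20, adjusted p = 0.0147), Ptger3 (-0.55, SE 0.14, adjusted p = 0.015) and Slco2a1, where 17.5% of probes passed, 9.26% higher and 8.27% lower. Without rat 13, 15, 21 or 22 Ptgs1 no longer passed there (0.0518 to 0.0625), nor with averaged probes (0.167). With normexp Ptgs1 (0.29, adjusted p = 0.0535), Ptges (0.29, 0.147) and Ptger3 (-0.24, 0.131) did not pass. In untreated rats 0 of the 9 genes passed by limma, as did 0% of probes, and Slco2a1 was the 1 gene with an unadjusted p under 0.05. For the difference between the DSS effects 0 of 9 passed, where 0.0428% of probes did, and 3 genes (Ptges, Hpgd and Ptger3) had an unadjusted p under 0.05.

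Beyond these genes, 119 others of the pathway had been listed in 8 groups, and 108 had a probe. After DSS in Pirc rats 21 rose and 12 fell, where 8.14% of all probes rose and 6.51% fell, with a median difference of 0.17. In Apc wildtype rats 9 rose and 0 fell, where 2.94% of probes rose and 0.899% fell, with a median of 0.12. Between the DSS-treated genotypes 14 were higher and 14 lower in Pirc rats, where 9.47% and 8.76% of probes were, and in untreated rats 0 passed. The counts of the single lists are to be read against the same shares.

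Among the phospholipases, which release arachidonic acid, 4 of 13 rose and 3 fell after DSS in Pirc rats. The secreted enzyme Pla2g2a rose by 4.44 on the log2 scale (SE 0.40) and Pla2g2d by 2.02 (SE 0.39), as did Anxa1, the phospholipase inhibitor annexin A1 (1.88, SE 0.32). The cytosolic enzyme Pla2g4a, the main source of arachidonic acid for the cyclooxygenases, was lower by 1.43 (log2 difference -1.43, SE 0.39, adjusted p = 0.0234). In Apc wildtype rats 2 of 13 passed, Pla2g2a (2.57) and Pla2g2d (2.55). Among the DSS-treated rats 3 were higher and 4 lower in Pirc rats, led by Pla2g2a (4.63), Pla2g5 (1.58), Anxa1 (1.05) and Pla2g15 (-0.96).

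Of the 10 genes of other prostanoid synthesis and export, Hpgds, the hematopoietic prostaglandin D synthase, rose after DSS by 1.33 in Pirc rats (SE 0.26, adjusted p = 0.00324) and by 1.30 in Apc wildtype rats (SE 0.26, adjusted p = 0.0124). The exporter gene Abcc4 also rose in Pirc rats (0.85, SE 0.19), and Cbr1 (-1.11, SE 0.21) and Cbr3 (-0.56, SE 0.15), carbonyl reductases that act on prostaglandin E2, fell. Among DSS-treated rats 3 were higher in Pirc rats, Tbxas1, the thromboxane synthase (1.21), Abcc4 (0.64) and Ptges3 (0.60), and Cbr1 was lower (-0.67). Of 9 other breakdown genes 0 rose and 2 fell after DSS in Pirc rats, the prostaglandin reductase genes Ptgr3 (-0.90, SE 0.19, adjusted p = 0.00644) and Ptgr1 (-0.71, SE 0.21, adjusted p = 0.034), and in Apc wildtype rats 0 of 9 passed. Both were also lower in Pirc than in Apc wildtype rats after DSS (-0.67 for Ptgr3 and -0.80 for Ptgr1), where the fatty acid hydroxylase gene Cyp4f1 was higher (3.01, SE 0.86). The list of other prostanoid receptors held 8 genes, among them the nuclear receptor genes Ppard and Pparg and the receptor regulator gene Ptgfrn. Of these 8 genes 0 passed in either genotype after DSS, or between genotypes, with a median DSS difference of 0.06 in Pirc rats.

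Of 17 genes that carry the EP receptor signal, such as G proteins, adenylyl cyclases and protein kinase A, 2 rose and 0 fell after DSS in Pirc rats, the kinase subunit genes Prkar2a (0.76, SE 0.23) and Prkar1a (0.59, SE 0.11), a share near the 14.7% of all probes that passed, and 0 passed in Apc wildtype rats. Between the DSS-treated genotypes Rapgef3 was higher in Pirc rats (0.64) and Adcy6 (-0.62) and Gnai2 (-0.51) were lower. Of 15 genes known to respond to cyclic AMP, 2 rose and 2 fell after DSS in Pirc rats. These were Il10, an anti-inflammatory cytokine (4.37, SE 0.57, well above background on 6 arrays), the phosphodiesterase gene Pde4b (1.73, SE 0.33, on 5 arrays), Ppargc1a (-1.52, SE 0.29) and Nr4a2 (-1.33, SE 0.29), and the same 4 passed in the same directions between the DSS-treated genotypes (3.53, 1.46, -1.53 and -1.01).

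Of 14 genes of the lipoxygenase and leukotriene branch, which competes for arachidonic acid, 3 rose and 3 fell after DSS in Pirc rats. The platelet-type lipoxygenase Alox12 rose by 2.69 (SE 0.41) and the leukotriene receptor Ltb4r by 2.34 (SE 0.63), while Alox5 (-1.21, SE 0.15) and its partner Alox5ap (-0.67, SE 0.18) fell. Of the 14, Alox12 alone passed in Apc wildtype rats (3.48, SE 0.41). Between the DSS-treated genotypes 0 were higher and 3 were lower in Pirc rats, Alox5 (-0.83), Alox5ap (-0.55) and Ltc4s (-0.48). Of 23 genes listed for the induction of Ptgs2, not all of them inducers, 8 rose and 0 fell after DSS in Pirc rats. They were led by Il1a (5.06, SE 0.76), Il1b (4.80, SE 0.89), Tnf (3.94, SE 0.52) and Cebpd (2.10, SE 0.26), the last a C/EBP factor. In Apc wildtype rats 5 rose and 0 fell, led by Il1b (4.59), Il1a (3.91), Fosl1 (3.61) and Tnf (2.64), with Ptgs2 itself not well above background there. Between the DSS-treated genotypes 4 were higher in Pirc rats, Il1a (3.39), Tnf (2.95), Cebpd (2.78) and Nfkbia (0.77), the last the gene of an NF-kappaB inhibitor.

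**Figure D3:**
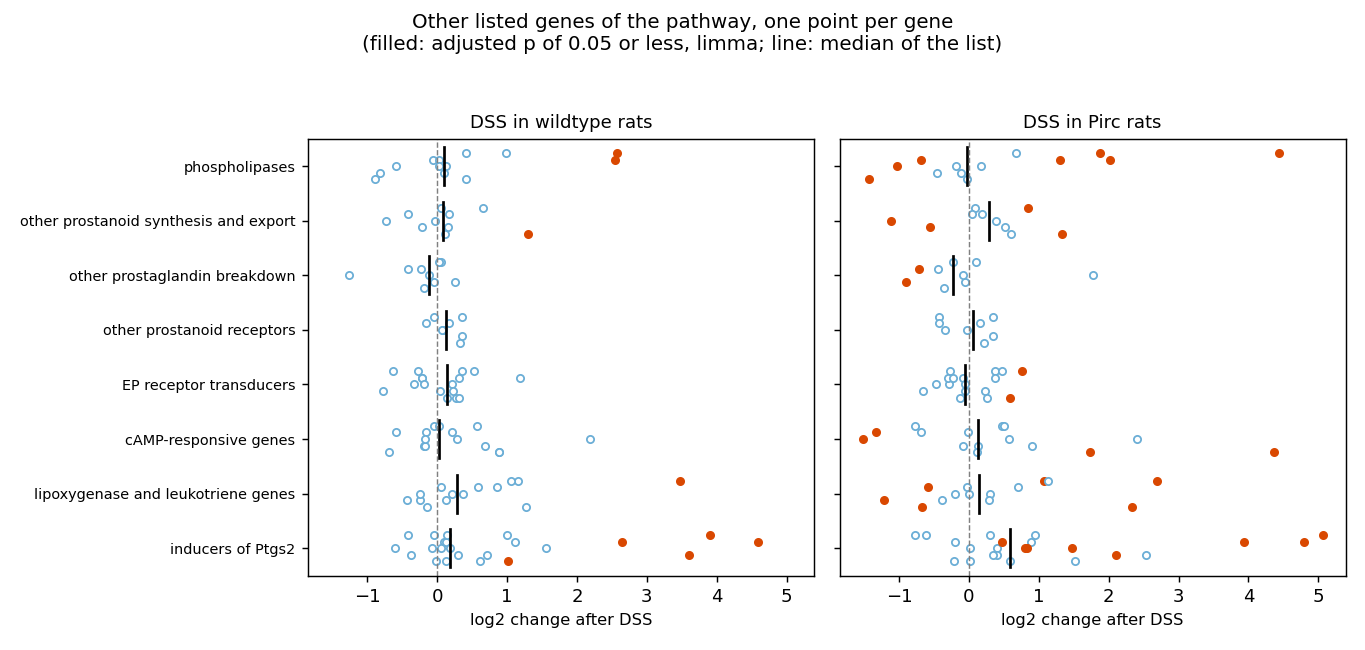
Log2 difference after DSS (horizontal axis) of 108 other genes of the pathway in 8 lists, 1 point a gene, filled where the adjusted p was 0.05 or less, with the list's median as a line. In Pirc rats filled points lie on both sides of 0 (21 higher, 12 lower), and in Apc wildtype rats all 9 lie above it.

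Markers of other cell types moved with DSS in the same rats, and their part in the differences above was not tested. Of 12 measured markers of stratified epithelium and urothelium, tissues normal colon lacks, 10 rose after DSS in Pirc rats, where 8.14% of probes did. Their summed level was 16.7 to 98.3 times the 75th percentile after DSS in Pirc rats, 0.441 to 0.909 in untreated ones, 0.475 to 36.2 in DSS-treated and 0.459 to 1.13 in untreated Apc wildtype rats. Of the 12 markers, 8 were well above background on every array, those of untreated rats included. The defining markers Ivl and Upk2 were not well above background on any array. Rat 20, with the lowest Hpgd and the highest Ptgs2, had the highest sum, 98.3. In the other DSS-treated Pirc rats the sum was lower where Hpgd was lower. It was 78.2 with Hpgd at 3.83 in rat 24, 40 with 3.69 in rat 16 and 16.7 with 2.98 in rat 12. Among DSS-treated Apc wildtype rats, rat 22 had 36.2 with Hpgd at 4.75 and Ptges at -4.51, both within the range of the untreated. Rat 26 had 0.475.

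Of 9 neutrophil markers 4 rose and 0 fell after DSS in Pirc rats, where 8.14% of all probes rose and 6.51% fell. Those that rose were S100a8 (4.58), S100a9 (3.95), Cxcr2 (2.44) and Fcgr3a (1.66). Csf3r (1.52), Ngp (0.73), Camp (0.61), Elane (0.05) and Ltf (-0.83) did not pass. The sum of the 9 markers, in which bright probes weigh most, was 9.28 to 37.9 in Pirc rats with DSS against 1.10 to 1.87 without. In Apc wildtype rats it was 1.03 to 4.47 with DSS against 0.479 to 0.853 untreated, with Elane not well above background on any array. Of 9 tuft cell markers 0 rose and 5 fell in Pirc rats (Dclk1, Trpm5, Pou2f3, Avil and Il17rb), where 6.51% of probes fell. In Apc wildtype rats 0 of these passed, where 3.84% of probes did. Tuft cells are known to express Ptgs1, Hpgds and Alox5. The tuft sum was 0.175 to 0.288 in Pirc rats with DSS, 0.373 to 0.51 in those without, 0.318 to 0.437 in DSS-treated and 0.427 to 0.497 in untreated Apc wildtype rats. In it only the DSS-treated Pirc rats stood clear of all others, as they did for Ptger3, Hpgd, Ptges and the neutrophil sum. Gfi1b of that list was not well above background on any array.

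After DSS in Pirc rats 8 of 9 markers of fibroblasts, 6 of 8 of endothelium, 5 of 10 of macrophages, 4 of 9 of mast cells and 3 of 8 of lymphocytes rose and none of these fell. Over all probes 8.14% rose and 6.51% fell there. Of 8 smooth muscle markers 1 fell, and of 9 markers of colon epithelium 1 fell, shares near the 14.7% of all probes that passed. Of 9 markers of surface colonocytes, the cells where Hpgd is highest, 2 rose and 1 fell. The sum of the surface colonocyte markers was 161 to 277 in Pirc rats with DSS and 119 to 198 in untreated ones, which overlapped. It was 220 to 299 in DSS-treated and 133 to 227 in untreated Apc wildtype rats. A relation of this sum to Hpgd was not tested.

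**Figure D4:**
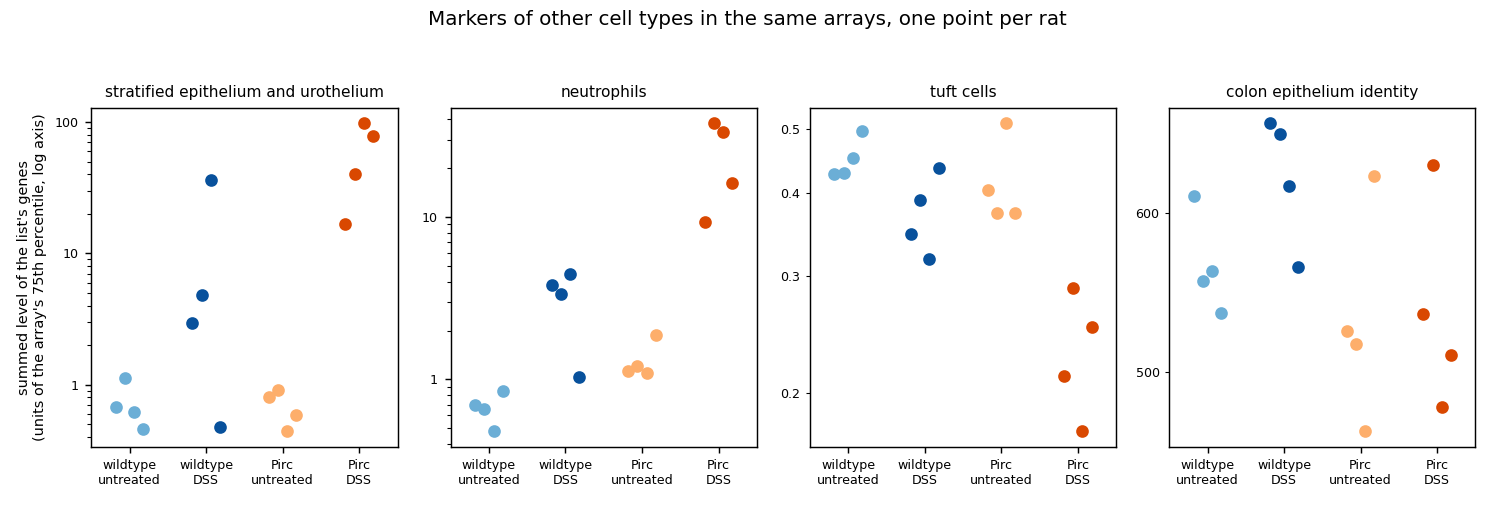
Summed level (vertical log axis, units of the array's 75th percentile) of 4 lists of marker genes in each rat, by group. The DSS-treated Pirc rats sit above all untreated rats for stratified epithelium and urothelium (16.7 to 98.3) and neutrophils (9.28 to 37.9), below all other rats for tuft cells (0.175 to 0.288), and among the others for colon epithelium.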

How the data were processed

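RNA of the normal distal colon of each of 16 rats was labelled with Cy3 and hybridised, per the labels, to a single-colour Agilent array of 62976 spots, and the authors deposited the scanner output of Agilent Feature Extraction 10.7.3.1. Its processed signal is a background-subtracted intensity, not normalized between arrays, and its flags (of the kind other than intensity) mark control spots, outliers and spots well above background. Partek, named in the submitters' processing notes, left no values used here. Here the 4259 control spots and outlier-flagged spots were left out. The exception was 25 probe values with no unflagged spot, which entered the fit as the mean of their flagged spots. The log2 of the processed signal was taken relative to the array's 75th percentile, spots of a probe were averaged, and 30367 probes remained. A probe counted as well above background where as many of its spots were flagged so as were not, or more. Matched to the RefSeq genes by unversioned accession, 18006 probes had a gene symbol, 15159 symbols in all, and 12361 had none. A gene with several probes was described by the probe with the highest mean level.

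A linear model with 1 mean per group was fitted to all 16 rats in R 4.3.3 with limma 3.58.1 and moderated variances, and p-values were adjusted by Benjamini-Hochberg over all probes. A difference passed at an adjusted p of 0.05 or less. Single genes were also compared by the exact permutation test (70 splits). The fit was tested on simulated data. Where a probe was not well above background on most arrays of a group, no fold is given. The common floor was the highest, over arrays, of the lowest scaled signal of a probe well above background. The 10 genes were all to be named. Of the other lists up to 4 genes a comparison were to be named, those that passed with the largest change, and also the 5 genes most like Ptgs2 and Hpgd. Genes, lists, markers and tests were chosen with earlier results of these data known. The alternatives were normexp background correction, quantile normalization, another scaling, a common floor or a filter for dim probes, outlier spots kept, averaged probes, slide or array row as a block, no moderation, only the compared groups, stricter thresholds, and each rat left out. The number of arrays limits the precision. No 2 arrays were identical, and rats are numbered 11 to 26 with no number shared between groups.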

Additional observations from a re-analysis of the deposited data

Results flagged for a closer look

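In 36 sets of 4 rats (9 genes in 4 groups), 2 held a rat far from the other 3 by Dixon's test, where chance gives about 1 in 20, or 1.8. The level of Ptges in DSS-treated Pirc rat 24 was -3.65, below the -2.94 to -2.82 of the other 3, and it still lay above every untreated Pirc rat. The level of Ptger3 in untreated Pirc rat 23 was -5.22, below the -4.58 to -4.51 of the other 3, and it lay above every DSS-treated rat.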

How the results depend on the processing

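Over 791 values recomputed under the other settings, 727 kept their direction and their side of the threshold, and 42 no longer passed, 5 newly passed and 17 changed sign. Leaving out each rat in turn gave 1008 values, of which 949, 31, 9 and 19 did so. None of the differences that changed sign had passed. The number of genes past the threshold after DSS in Pirc rats (5) was 2 at an adjusted p of 0.01, 3 with normexp, 2 with only the compared groups in the fit and 3 to 5 when single rats were left out. After DSS in Apc wildtype rats (1) it was 0 at 0.01, 0 with a factor of 2 required, 0 with normexp and 0 to 1 without single rats. Over both genotypes (4) it was 2 at 0.01 and 2 with the common floor. For Pirc in DSS-treated rats (5) it was 3 with only the compared groups, and over both treatments (5) it was 1 at 0.01, 0 with a factor of 2 and 2 with normexp. The fit of only the compared groups could not be run for the pooled comparisons or the difference between DSS effects, which use all groups. With normexp the median over all probes moved to 0.176 for DSS in Pirc rats and -0.168 for Pirc in DSS-treated rats, and signs turned for Ptger2 (-0.07, -0.25 and -0.16 for Pirc in DSS-treated rats, in untreated rats and over both), for Ptgs2 (-0.30 in untreated rats and -0.12 over both), for Ptges and Ptger3 in untreated rats (-0.07 each) and for Ptgis (DSS 0.11 in Pirc, 0.05 in Apc wildtype and 0.08 over both; Pirc -0.12 with DSS, -0.18 without and -0.15 over both; difference of DSS effects 0.06). That difference of Ptgis also turned with quantile normalization (0.04) and the other scaling (0.02), and Ptger3 in untreated rats with probes averaged (-0.01). Without single rats signs turned within -0.54 to 0.27 for that difference of Ptgis, -0.41 to 0.41, -0.03 to 0.34 and -0.14 to 0.27 for Pirc on Ptgis (with DSS, without, over both), -0.01 to 0.39 and -0.05 to 0.47 for Pirc in untreated rats on Ptger4 and Ptgs2, -0.20 to 0.01 for DSS over both genotypes on Ptger4 and -0.01 to 0.17 for DSS in Apc wildtype rats on Ptgs1. The cause was not tested. Slide and array row as blocks changed 1 call, Ptgs2 for Pirc in DSS-treated rats, which passed with array row (adjusted p = 0.0373), as it did with the common floor (0.0413) and the filter on dim probes (0.0379). No paired analysis was possible because no rat number occurs in more than 1 group. Signal near background limits Ptgs2 and Ptger2.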

Other observations

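The genes whose level followed that of Hpgd most closely over the 16 arrays, among 11594 genes well above background on at least 8 arrays, were Prss32 (Pearson r = 0.96), Nap1l3, Gsdme and Pla2g10 (0.959 each) and Msantd4 (0.955). After each group's mean was taken out, r was 0.874 to 0.918 for these 5, a value that rests mainly on the 4 DSS-treated Pirc rats, in which the SD of Hpgd was 0.75, against 0.16 to 0.26 in the other groups. Pla2g10 is a secreted phospholipase of the list above. For Ptgs2 they were Runx1 (0.887), Cbx6 (0.875), Map4k4 (0.872), Ltbp1 (0.871) and Rcn1 (0.865), with 0.666 to 0.767 within groups. The Ptgs2 probe was well above background on only 4 of the 16 arrays, so that most of the values behind these r were at background. For Ptger3, added after its values were seen, the closest genes were Ift25 (0.96), Dnai7 (0.935), Tmem143 (0.933), Slc27a2 (0.932) and Cfc1 (0.931), and within groups r was 0.234 to 0.685. The points share the arrays and the 4 groups, and these values are descriptions with no test.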
